A study of Mus musculus with 38 samples.

Results

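The protease-activated receptors are a family of 4 genes, F2r, F2rl1, F2rl2 and F2rl3, taken by symbol from the 25965 genes of the RNA table and the 72923 promoter windows of the chromatin table. All 4 were found in both tables, with 1 window each. The family was selected on RNA and H3K4me3 differences between ages in these data, in which F2rl1 RNA and H3K4me3 at F2rl1 and F2rl2 were lower in aged cells. The RNA and H3K4me3 differences between ages are therefore given for all 4 genes as a description, without a test. For the receptors, tests are given for measures the choice did not use, which are the difference between strains, the order of the levels and DNA methylation. The RNA difference between ages was tested for lists of other genes, which were chosen with earlier results of these data known.

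The cells were neural stem/progenitor cells (NSPCs) grown as neurospheres, free-floating clusters, from the subventricular zone (SVZ), a neurogenic niche of the adult mouse brain. Young adult NSPCs came from male C57BL/6JBabr mice of 3 months and aged NSPCs from mice of 18 months, with 3 derivations per age, each pooled from 5 mice and harvested at the second passage in medium with EGF, FGF-basic, B27 and heparin. The 8 RNA libraries comprised these 6 derivations and 1 young adult and 1 aged library of the C57BL/10 strain, whose mice were of the same ages and were kept in another facility. Chromatin of 3 derivations per age was profiled for H3K4me3, H3K27me3 and Input, and DNA of 3 derivations per age by bisulphite (BS) and oxidative bisulphite (oxBS) sequencing, all in C57BL/6JBabr. No gene was manipulated in any group, and a library measured what a culture held after passage and not the niche itself.

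Protease-activated receptors are G protein-coupled receptors that carry their own ligand. A protease cuts the extracellular end of the receptor and unmasks a tethered peptide, which then activates Gq, G12/13 or Gi proteins. F2r encodes PAR1, the main thrombin receptor of many cell types, astrocytes included. F2rl1 encodes PAR2, which is cut by trypsin-like proteases such as tryptase and not efficiently by thrombin. F2rl2 encodes PAR3, which in mouse platelets acts as a cofactor for thrombin cleavage of PAR4, and F2rl3 encodes PAR4, the thrombin receptor that signals in mouse platelets.

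In GRCm38, F2rl1 (ENSMUSG00000021678, minus strand), F2r (ENSMUSG00000048376, minus strand) and F2rl2 (ENSMUSG00000021675, plus strand) lay in this order on chromosome 13. Their bodies were at chr13:95511732-95525240, chr13:95601804-95618459 and chr13:95696853-95702739. The 3 genes spanned 191.0 kb, with gaps of 76.6 kb and 78.4 kb between them. F2rl3 (ENSMUSG00000050147, plus strand) stood apart at chr8:72761880-72763874. Each gene had 2 exons in the GENCODE vM21 annotation. F2rl2 lay within an intron of Iqgap2, which is transcribed from the other strand, and shared no exon with it. The RNA library kit did not mark strand, so reads from F2rl2 and from unspliced Iqgap2 could not be told apart.

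The promoters of 3 of the 4 genes were in the RefSeq table for GRCm38.p6, as 250 bases before and 50 bases after the RefSeq start of the gene. They are shown for the number of CpGs near the start, beside the methylation of the wider windows given after the RNA. The methylation of the printed bases themselves was not computed. Capitals mark CpG dinucleotides, the sites where methylation is measured. The F2r promoter is chr13:95618417-95618716 (minus strand), the F2rl2 promoter chr13:95696670-95696969 (plus strand) and the F2rl3 promoter chr8:72761409-72761708 (plus strand).
F2r: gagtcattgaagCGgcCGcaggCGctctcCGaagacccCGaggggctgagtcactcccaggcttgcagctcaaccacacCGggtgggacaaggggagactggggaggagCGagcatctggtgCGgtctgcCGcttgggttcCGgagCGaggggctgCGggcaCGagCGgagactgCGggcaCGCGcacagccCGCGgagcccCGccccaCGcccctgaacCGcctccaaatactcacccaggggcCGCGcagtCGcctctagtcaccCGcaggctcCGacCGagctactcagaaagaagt
F2rl2: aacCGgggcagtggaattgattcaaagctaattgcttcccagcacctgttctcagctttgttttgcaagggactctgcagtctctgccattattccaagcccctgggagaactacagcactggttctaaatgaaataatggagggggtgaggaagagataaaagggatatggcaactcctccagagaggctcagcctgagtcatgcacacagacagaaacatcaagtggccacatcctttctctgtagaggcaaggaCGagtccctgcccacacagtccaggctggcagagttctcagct
F2rl3: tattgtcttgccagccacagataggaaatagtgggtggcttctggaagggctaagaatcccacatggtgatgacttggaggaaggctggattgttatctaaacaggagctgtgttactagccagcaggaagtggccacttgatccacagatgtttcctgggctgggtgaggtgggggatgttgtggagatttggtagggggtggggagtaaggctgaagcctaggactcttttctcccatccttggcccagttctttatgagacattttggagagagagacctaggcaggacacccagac

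The F2r promoter held 28 CpGs and a GC content of 68.7%, and 14.2% of 32851 promoters of this length held as many CpGs or more. The F2rl2 promoter held 2 CpGs (50.7% GC), and 85.9% of promoters held as many or more. The F2rl3 promoter held 0 CpGs (51.3% GC), against a median of 7 CpGs over all promoters. The letters GGGCGG of a GC box, sought on both strands, occurred 1 time in F2r and in neither of the others, and in 35.7% of all promoters. TATAAA and CCAAT occurred in none of the 3, and in 13.6% and 37.4% of all promoters. The RefSeq starts lay 7, 67 and 221 bases from the centres of the deposited windows of F2r, F2rl2 and F2rl3.

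The RNA table gave log2 RPM, a read number divided by the size of its library, on the log2 scale. The libraries held 16952482 to 41053983 reads, of which 65.5% to 69.3% lay on genes. Genes expected of NSPCs were present in every library (8 of 8 markers tested, such as Nes and Sox2, with a summed level of 4652 to 6940 RPM). Of the 7 microglial markers, Csf1r held 95 to 230 reads in a library and P2ry12 6 to 26, Itgam held at most 5, Aif1, Cx3cr1 and Tmem119 at most 1 and Ptprc 0. Of the 6 endothelial markers, Flt1 held 155 to 832 reads, Kdr 36 to 109, Pecam1 3 to 14 and Tek 1 to 6, and Cldn5 and Cdh5 held at most 2 and 1.

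F2r was by far the most abundant receptor. It held 3485 to 9318 reads in a library, and its log2 RPM was higher than that of 98.0% of genes. In young adult NSPCs it was 7.83, 7.68 and 7.54 in derivations 1, 2 and 3, and in aged NSPCs 7.72, 7.47 and 7.41. The groups overlapped, with means of 7.68 ± 0.14 and 7.53 ± 0.16 (SD, n = 3 per age). Aged minus young adult gave -0.15 (SE 0.12). Within the same replicate number the differences were -0.11, -0.22 and -0.13, and with the replicate number as a block the SE was 0.06.

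F2rl1 varied more between derivations than between ages. Its log2 RPM was 2.85, 1.47 and -0.62 in young adult derivations 1, 2 and 3 (295, 47 and 17 reads), and 1.86, -0.27 and -2.13 in the aged ones (145, 23 and 9 reads). In each age the first derivation was highest and the third lowest, and the groups overlapped widely. The young adult mean was 1.23 ± 1.74 and the aged mean -0.18 ± 2.0 (SD, n = 3 per age), a difference of -1.41 (SE 1.09), or 2.66-fold lower. Within the same replicate number the aged derivation was lower by a difference of -0.99, -1.74 and -1.51. With the replicate number as a block, the difference of -1.41 kept its size and its SE was 0.22. Of the 14858 genes that passed a filter on low values (a mean of -2 or more on this scale), 13.3% were lower in the aged library of every replicate number. F2r, F2rl1 and F2rl2 were all among them. Leaving out 1 library moved the difference from -0.44 (without aged derivation 3) to -2.43 (without aged derivation 1), and it was -0.61 without young adult derivation 1 and -2.34 without young adult derivation 3. In bulk RNA, fewer cells with F2rl1 and less F2rl1 RNA per cell cannot be told apart.

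The spread of F2rl1 was unusual for its level. Its SD within an age, pooled over both ages, was 1.87 on the log2 scale, larger than that of 99.9% of the 14858 genes and of 99.8% of the 1780 genes within 1 log2 unit of its level. The SD of F2r was 0.15 and that of F2rl2 0.29, larger than those of 43.3% and 74.4% of genes. Markers of ependymal cells moved with the replicate number in the opposite order. Their summed level (3 of 4 genes in the table) was 30.4, 64.1 and 98.3 RPM in young adult derivations 1, 2 and 3 and 34.0, 53.0 and 92.0 RPM in the aged ones. Nearly all of it was Foxj1, while Tmem212 held at most 1 read in a library. In C57BL/10 the ependymal sum was 85.8 RPM in the young adult and 69.8 RPM in the aged library. There F2rl1 was higher in the young adult library too, at 2.79 against -0.62. The summed level of pericyte and smooth muscle markers (4 of 4 genes in the table) ran in the same order as F2rl1. It was low, at 2.80, 2.3 and 1.95 RPM in young adult and 2.58, 2.06 and 1.67 RPM in aged derivations. Of these markers Acta2 ran in that order in both ages, and Des in the aged derivations only. Pdgfrb and Rgs5 rose from derivation 1 to 3 in both ages. The platelet and megakaryocyte sum ran in the opposite order to F2rl1, between 6.97 and 12.9 RPM and mostly as Itga2b. Gp9 held 0 reads in all libraries. In the young adult and aged C57BL/10 libraries the pericyte sum was 2.10 and 2.36 RPM and the platelet sum 10.2 and 10.9 RPM. The part of these cells in the levels of F2rl1 was not tested.

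**Figure D1:**
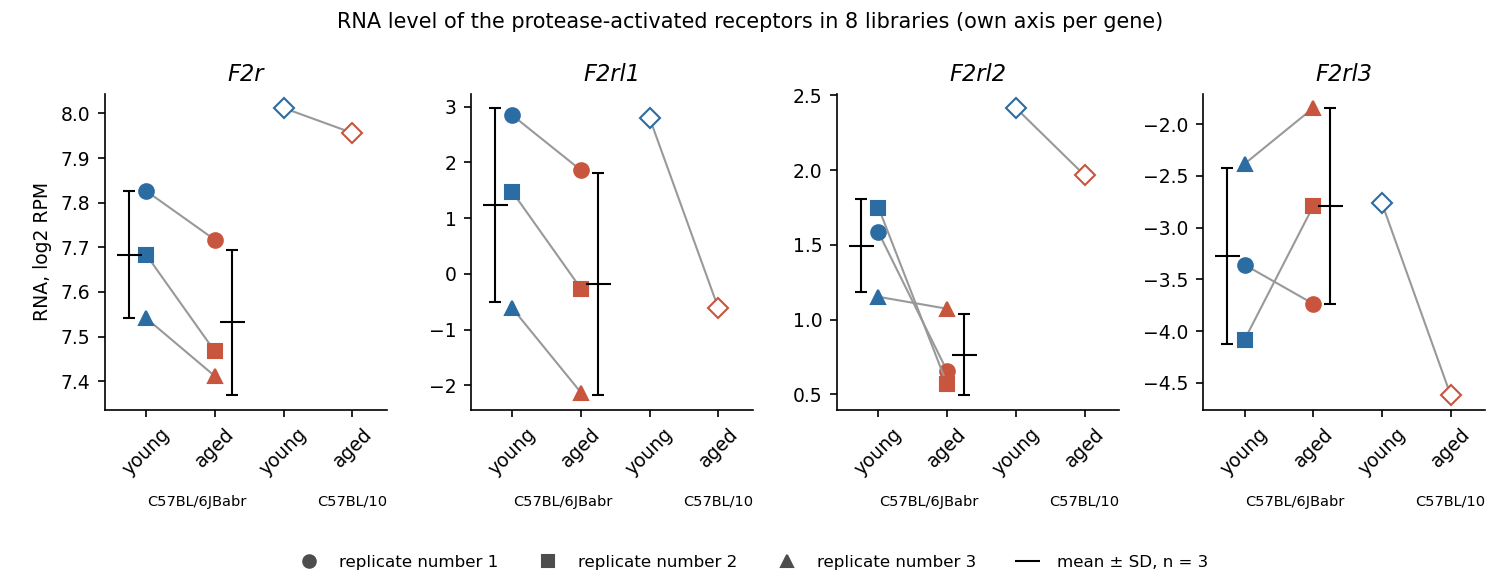
RNA levels (log2 RPM, own axis for each gene) of the 4 receptors in 8 libraries. Filled symbols are C57BL/6JBabr derivations, with a shape for each replicate number and grey lines between young adult and aged derivations of the same number, black bars are the mean ± SD (n = 3), and open diamonds are the single C57BL/10 libraries. F2rl1 runs from 2.85 to -0.62 within the young adult derivations and from 1.86 to -2.13 within the aged ones, with the aged value below the young adult one of the same number in each pair.

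**Figure D2:**
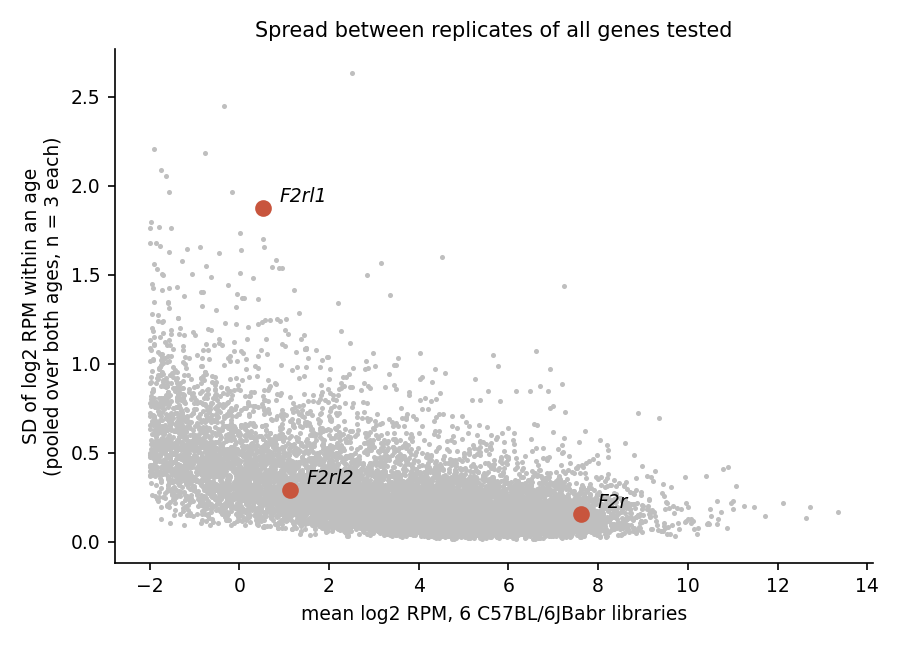
SD of log2 RPM within an age (pooled over both ages, n = 3 each) against mean log2 RPM over the 6 C57BL/6JBabr libraries for 14858 genes (grey points). F2rl1, at an SD of 1.87, lies at the upper edge of the genes of its level, whereas F2r and F2rl2 lie among them.

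F2rl2 was the receptor whose groups did not overlap. Its log2 RPM was 1.58, 1.75 and 1.15 in young adult NSPCs (57 to 123 reads) and 0.66, 0.57 and 1.07 in aged NSPCs (41 to 83 reads). The highest aged value and the lowest young adult value, both from derivation 3, were 1.07 and 1.15. The young adult mean was 1.5 ± 0.31 and the aged mean 0.76 ± 0.27 (SD, n = 3 per age), a difference of -0.73 (SE 0.24), or 1.66-fold lower. By replicate number the differences were -0.93, -1.18 and -0.08, and the SE with the replicate block was 0.22. The groups did not overlap in 5.2% of the 14858 genes, in 2.05% with all aged libraries lower and in 3.14% with all of them higher. Iqgap2, in whose intron F2rl2 lies, encodes a scaffold protein of the cytoskeleton and stood at 5.41 ± 0.27 in young adult and at 5.39 ± 0.23 in aged cells (SD, n = 3 per age).

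F2rl3 was at the limit of detection. It held 4, 1 and 5 reads in young adult and 3, 4 and 11 reads in aged derivations, and did not pass the filter on low values. Its log2 RPM was -3.28 ± 0.85 and -2.79 ± 0.95 (SD, n = 3 per age), a difference of 0.49 (SE 0.68) that this depth cannot resolve. Of the 4 receptors, 3 passed the filter. Over all 14858 genes, limma called 0 (0%) at an adjusted p under 0.05 (258 at an unadjusted p under 0.05), and 74 (0.498%) with the replicate block. edgeR called 0 (254 unadjusted) and DESeq2 4.

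The single libraries of C57BL/10 gave the same direction for the 3 receptors that passed the filter. F2rl1 held 188 reads in the young adult and 16 in the aged library, a young adult to aged ratio of 10.6 after scaling to library size (95% exact interval 6.37 to 19.0, counting error only). F2rl2 held 145 reads in the young adult and 96 in the aged library (ratio 1.37, 95% exact interval 1.05 to 1.79). F2r held 7019 and 6106 reads (ratio 1.04, 95% exact interval 1.00 to 1.08), and F2rl3 4 and 1. With 1 library per age, these intervals compare libraries and not ages.

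The age by strain interaction, the difference between ages in C57BL/10 minus that in C57BL/6JBabr, is given without a test, since it is built from the difference on which the family was selected. It was -2.0 (SE 2.19, and 0.41 with the replicate block) for F2rl1, 0.28 (SE 0.47, and 0.41 with the block) for F2rl2 and 0.10 (SE 0.23, and 0.12 with the block) for F2r. Over all genes limma called 1 interaction (0.00673%), and 41 with the replicate block (0.276%).

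Between strains, F2rl2 and F2r were higher in C57BL/10 in the fit that took libraries as independent, and neither passed once the correlation within a replicate number was estimated. With age as a covariate, the mean log2 RPM of F2rl2 was 2.19 in C57BL/10 (2.42 and 1.97) and 1.13 in C57BL/6JBabr, a difference of 1.06 (SE 0.22, limma adjusted p = 0.00715). Both C57BL/10 libraries lay above all 6 C57BL/6JBabr libraries. The share of all genes whose strains did not overlap was not computed. Such a separation is therefore not read as particular to F2rl2, or to F2r below. F2r was higher by 0.38 (SE 0.11, adjusted p = 0.0270), at 8.01 and 7.96 against 7.41 to 7.83. F2rl1 differed by 0.56 (SE 1.08, adjusted p = 0.708). With a correlation of 0.48 between libraries of 1 replicate number and within the C57BL/10 pair, estimated in limma, the same differences had an adjusted p = 0.0531 for F2rl2 (SE 0.33) and an adjusted p = 0.0601 for F2r (SE 0.12). Without the correlation 30.1% of genes were called (18.2% higher and 11.9% lower in C57BL/10), with it 2494 genes (1045 higher and 1449 lower), and the median difference of all genes was 0.17. The scaling of edgeR moved this median to 0.01. There F2rl2 was higher by 0.88 and stayed past the threshold (edgeR adjusted p = 0.0148), F2r was higher by 0.21 and did not pass (adjusted p = 0.241), and of the 2647 genes called 704 were higher and 1943 lower.

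With 1 of the C57BL/10 libraries left out, the lone library of that strain is assumed to vary like the C57BL/6JBabr ones. Without the young adult or the aged C57BL/10 library, F2rl2 was higher by 1.2 (adjusted p = 0.0642) and 0.92 (adjusted p = 0.113). F2r was higher by 0.42 and 0.33 without them (adjusted p = 0.169 and 0.221). It also lost its call without derivation 2 of both ages (adjusted p = 0.102), and stood at 0.33 after quantile normalization (adjusted p = 0.0521). Iqgap2, around F2rl2, was also higher in C57BL/10, by 0.72 (SE 0.15, limma adjusted p = 0.00744, and 0.0101 with the correlation), and its part in the reads of F2rl2 was not tested. Strain, animal facility and cohort cannot be told apart here.

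Levels of different receptors were compared per length of exons, as log2 RPM per kb over the 8 libraries. F2r stood at 5.96 ± 0.22 (SD, n = 8), F2rl2 at 0.07 ± 0.65 (SD, n = 8), F2rl1 at -0.79 ± 1.83 (SD, n = 8) and F2rl3 at -4.01 ± 0.92 (SD, n = 8). F2r exceeded F2rl2 by 5.89 in the mean and in 8 of 8 libraries (exact sign-flip permutation test, two-sided, p = 0.00781, the smallest that 8 libraries can give, adjusted p = 0.0234 over 3 neighbouring pairs). F2rl1 exceeded F2rl3 by 3.22, in 7 of 8 libraries (exact permutation p = 0.0156, adjusted p = 0.0234). F2rl2 and F2rl1 did not differ beyond their spread, at a difference of 0.86 ± 1.68 (SD) with F2rl2 higher in 5 of 8 libraries (exact permutation p = 0.195). This test took the 8 libraries as independent, although C57BL/6JBabr libraries of 1 replicate number deviated together. With those libraries averaged and flipped as 1 unit, F2r exceeded F2rl2 by 5.79 and F2rl1 exceeded F2rl3 by 3.4, each in 5 of 5 units, and neither passed the threshold (exact permutation p = 0.0625, the smallest that 5 units can give, adjusted p = 0.0938). Over the 6 C57BL/6JBabr libraries alone the order was the same, and 0 of the 3 pairs passed the threshold, where the smallest p is 0.0313 before adjustment.

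Genes with the most similar pattern over the 8 libraries were taken by Pearson correlation of log2 RPM among 13249 genes, as a description. For F2r these were Gpn1 (0.98), the proteasome subunit gene Psmd7 (0.98) and the tropomyosin gene Tpm1 (0.98), and 153 genes were above 0.90. For F2rl1 they were Tmsb4x (0.98), which encodes an actin-binding thymosin, the fatty acid binding protein gene Fabp7 (0.97) and the troponin gene Tnnt1 (0.97), and 34 genes were above 0.90. For F2rl2 they were Syne1 (0.98), which encodes a nuclear envelope spectrin, the angiopoietin gene Angpt1 (0.96) and Gm13706 (0.95), with 36 genes above 0.90. F2r and F2rl1 correlated by 0.97 over the 6 C57BL/6JBabr libraries and by 0.65 over all 8, where points share replicate number and strain.

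RNA of most listed protease genes was scarce in these cultures, and protease protein was not measured. Of 27 genes for proteases that cleave the receptors and for their cofactors, 8 passed the filter, against 14858 of all 25965 genes. Of the other 19, 10 held no read in any library. F2, which encodes prothrombin, held at most 1 read in a library, and F7, F10 and Ctss held 0. By RPM per kb the most abundant were Plat, which encodes tissue plasminogen activator (160), F3, which encodes tissue factor, the trigger of coagulation (39.2), and Thbd, which encodes the thrombin-binding thrombomodulin (5.83).

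Of the 8, 7 were lower and 1 higher in aged NSPCs, with a median difference of -0.15 against 0.00 over all genes tested, and 0 passed limma's threshold without the block. With the block, F3 passed. Its log2 RPM was 6.32, 6.14 and 6.61 in young adult and 5.82, 5.77 and 6.35 in aged derivations, lower in each replicate number although the groups overlapped, by a difference of -0.38 (SE 0.18 without the block, adjusted p = 1, and adjusted p = 0.0416 with it). In C57BL/10 F3 was 6.49 and 5.80. The largest difference in the list was that of Procr, the endothelial protein C receptor gene, at -0.71 (SE 0.32, adjusted p = 1, and 0.167 with the block). Plat was the member that was higher, by 0.09 (SE 0.10, adjusted p = 1). Of the 7 astrocyte markers, all in the table and with reads in every library, 1 was higher in aged NSPCs, with a median difference of -0.20. Their summed level was 2026, 2400 and 2294 RPM in young adult and 1837, 1829 and 2043 RPM in aged derivations, and 2523 and 1838 RPM in C57BL/10. Their part in the levels of the protease genes was not tested.

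Of 12 protease inhibitor genes 7 passed the filter, 4 higher and 3 lower in aged NSPCs with a median difference of 0.01, and 0 passed the threshold with or without the block. Serpine2, which encodes protease nexin-1, an inhibitor of thrombin, was the most abundant (322 RPM per kb, log2 RPM 9.47 ± 0.13 and 9.47 ± 0.06, SD, n = 3 each). A2m, the alpha-2-macroglobulin gene, held 60.1 RPM per kb and Serpinb6a 4.57. The largest fall in value was that of Spint2, at -0.40 (SE 0.38).

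Downstream, 27 of 28 genes for G proteins and their effectors passed the filter, and 0 were called with or without the block. Of these 21 were higher and 6 lower in aged NSPCs, with a median difference of 0.08. The most abundant were the Gi gene Gnai2 (151 RPM per kb), the small GTPase gene Rhoa (107) and the G12 gene Gna12 (62.5). Itpr3, which encodes an inositol trisphosphate receptor, had the largest difference, at -0.04, 0.00 and 0.05 in young adult and 0.46, 0.99 and 1.00 in aged derivations. The groups did not overlap for 4 of the 27 genes, Itpr3 and, named after their values were seen, Adrbk2, Gnai1 and Itpr2, against 5.2% of all genes tested. The Itpr3 difference of 0.81 (SE 0.24) did not pass the threshold (limma adjusted p = 1, and 0.169 with the block). The largest fall in value was that of Gna14, at -0.44 (SE 0.51).

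Of 16 genes that respond to Gq and G12/13 signalling 13 passed the filter, 3 higher and 10 lower, with a median difference of -0.12. The most abundant were the immediate early genes Fos (299.7 RPM per kb) and Egr1 (104.6) and the growth factor gene Hbegf (95.8). None passed without the block, and with it the chemokine gene Ccl2 did. Ccl2 was 2.21, 3.72 and 3.71 in young adult and 1.28, 3.00 and 3.25 in aged derivations, a difference of -0.70 (SE 0.57 without the block, adjusted p = 1, and adjusted p = 0.0319 with it). Fos had the largest rise in value, at 0.15 (SE 0.25). With the block, 1 of the 8 protease genes and 1 of the 13 response genes were called, against 0.498% of all genes. Of the 7 inhibitor genes and the 27 genes for G proteins and effectors, 0 were called with it.

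Of the 22 genes within 500 kb of a receptor 19 passed the filter and 0 were called with or without the block, with a median difference of 0.00. S100z, next to F2rl1, held 0 reads in all libraries. Next to F2rl3, Sin3b, a corepressor gene, had a difference of -0.13 (SE 0.10) and Large, a glycosyltransferase gene, of 0.10 (SE 0.10).

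H3K4me3, a mark of active promoters, followed the order of the RNA for F2r and F2rl3 at the ends. The authors deposited 1 log2 RPM per mark and age in 5000 bases around the transcription start site (TSS), so there was no replicate error. H3K4me3 was 5.70 in young adult and 5.90 in aged NSPCs at F2r, above 83.1% of windows. It was 2.95 and 2.36 at F2rl1 and 1.78 and 1.07 at F2rl2, above 45.6% and 42.0% of windows. At F2rl3 it was -0.95 and -1.93, below the Input of 1.83 and 1.54.

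A window was counted as changed at a difference of 1.5-fold (0.585 on the log2 scale) with a log2 RPM above 1 in an age. F2rl1 (-0.60, 1.51-fold lower) and F2rl2 (-0.71, 1.64-fold lower) met this rule for H3K4me3, among 114 windows that were lower (0.156% of 72923) and 35 that were higher (0.048%). Without the limit on the level, 13.5% of all windows had a larger fall than F2rl1 and 10.4% a larger fall than F2rl2. F2rl1 lay just inside the limit on the fold, and F2rl2 stood near the limit on the level, at 1.78 and 1.07. The Input of F2rl2 was 1.03 and 0.95, and its H3K4me3 lay above Input by 0.75 in young adult and 0.12 in aged NSPCs. At F2rl1 H3K4me3 lay above Input by 2.08 and 1.26. F2r (0.20) did not meet the rule, nor did F2rl3, whose difference of -0.99 came at levels under 1. With Input subtracted, the differences were -0.82 at F2rl1 and -0.63 at F2rl2, whereas over all windows the split turned from 35 higher and 114 lower to 1794 higher and 392 lower. The median difference of windows above the limit on the level was 0.21, which quantile normalization moved to 0.00. F2rl1 (-0.61) and F2rl2 (-0.66) met the rule there too, F2r stood at -0.026, and the split was 67 higher and 88 lower. At 2-fold, 27 windows met the rule and neither F2rl1 nor F2rl2 was among them. Over the 22 windows of the other genes near the chromosome 13 receptors 0 met the rule, and the H3K4me3 differences ran from -0.86 to 0.61 with a median of 0.17. The window of Iqgap2 held 5.84 and 6.09.

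H3K27me3, the mark laid down by Polycomb, was highest at F2rl1, at 1.48 in young adult and 1.49 in aged NSPCs, above 80.0% of windows. Its Input was 0.87 and 1.10. At F2r H3K27me3 was 0.69 and -0.43, at F2rl2 0.02 and 0.60 and at F2rl3 0.69 and -0.37. The differences at F2r (-1.13) and F2rl3 (-1.06) were at levels under 1, and no receptor met the rule, against 1.29% of windows. At F2r, F2rl2 and F2rl3, H3K27me3 lay below Input in both ages.

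**Figure D3:**
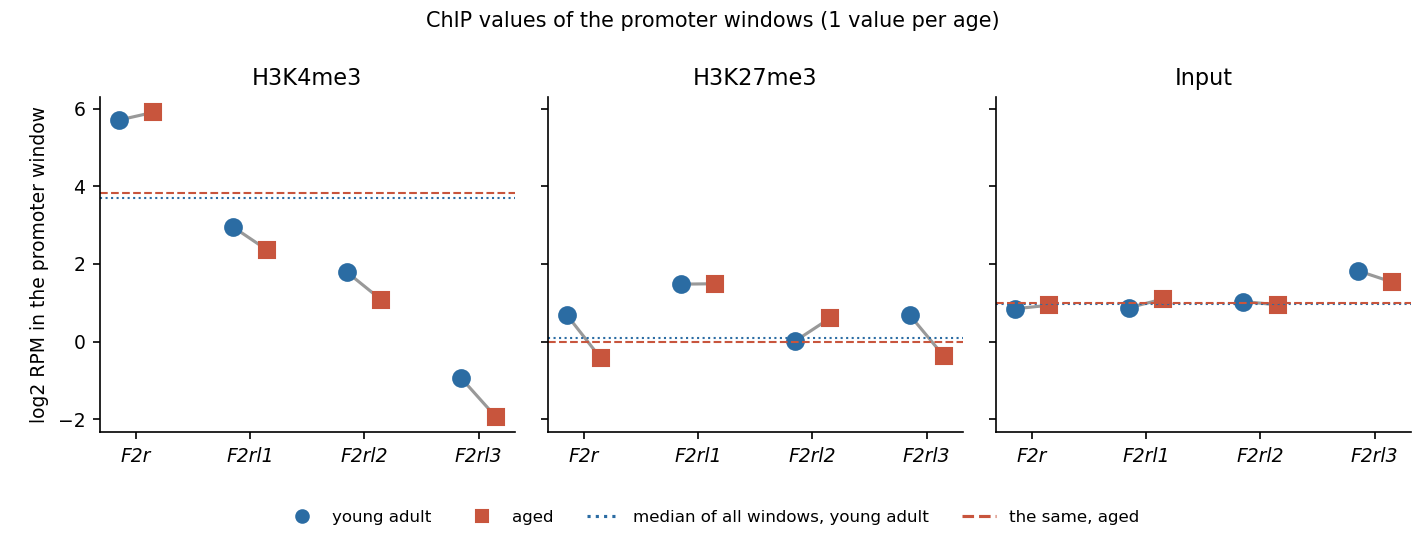
H3K4me3, H3K27me3 and Input (log2 RPM in the 5000 bases around the TSS) of the 4 receptors in young adult (circles) and aged (squares) NSPCs, 1 deposited value per age without error bars, with the median of all windows as lines. H3K4me3 is highest at F2r (5.70 and 5.90) and lowest at F2rl3 (-0.95 and -1.93), and F2rl1 is the receptor with the highest H3K27me3 (1.48 and 1.49).

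Methylation of the same windows ran in the opposite order to H3K4me3. oxBS reads 5-methylcytosine (5mC) alone, and values are the share of methylated calls among all CpG calls of a window. Over the 6 libraries 5mC was 32.7% ± 6.1 (SD, n = 6) at F2r, 40.6% ± 3.3 at F2rl1, 70.5% ± 6.3 at F2rl2 and 87.2% ± 6.6 at F2rl3. The windows held 30 to 165 oxBS calls per library, and the median over all 69710 windows with at least 10 calls in every library was 38.2%. Each neighbouring pair differed in the same direction in 6 of 6 libraries, by 7.91 points from F2r to F2rl1, 29.9 points to F2rl2 and 16.7 points to F2rl3. For each of the 3 pairs p was 0.0313 (exact sign-flip permutation test, two-sided, adjusted p = 0.0313), the smallest that 6 libraries can give.

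The low methylation of F2r and F2rl1 was a trough at the start site. In pooled oxBS calls of both ages, F2r held 1.29% 5mC in the first 500 bases after the TSS (2 of 155 calls, 95% exact interval 0.157 to 4.58) and 3.92% in the 500 bases before it. Beyond 1500 bases on either side it held 78.7% to 85.7%. F2rl1 held 10.9% in the 500 bases before the TSS (11 of 101 calls, 95% exact interval 5.56 to 18.7) and 16.8% after it. F2rl2 held 44.3% before (31 of 70 calls, 95% exact interval 32.4 to 56.7) and 63.8% after, with no step below 44.3%. It held a similar 46.3% from 1000 to 1500 bases after the TSS (25 of 54 calls), past a step of 85.0%. F2rl3 had no trough, at 84.2% before (16 of 19 calls) and 87.0% after. Over 1 kb on either side of the TSS the levels were 8.45%, 21.2%, 61.1% and 90.3%. PCR reads are not independent molecules, so these intervals cover counting error only. In the 3 genes with a printed promoter, 5mC within 1 kb rose from F2r to F2rl2 and on to F2rl3. Their printed promoters held 28, 2 and 0 CpGs. F2rl1 has none to compare, and the printed bases of F2rl3 end before the TSS of its window. A link between CpG number and 5mC was not tested.

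**Figure D4:**
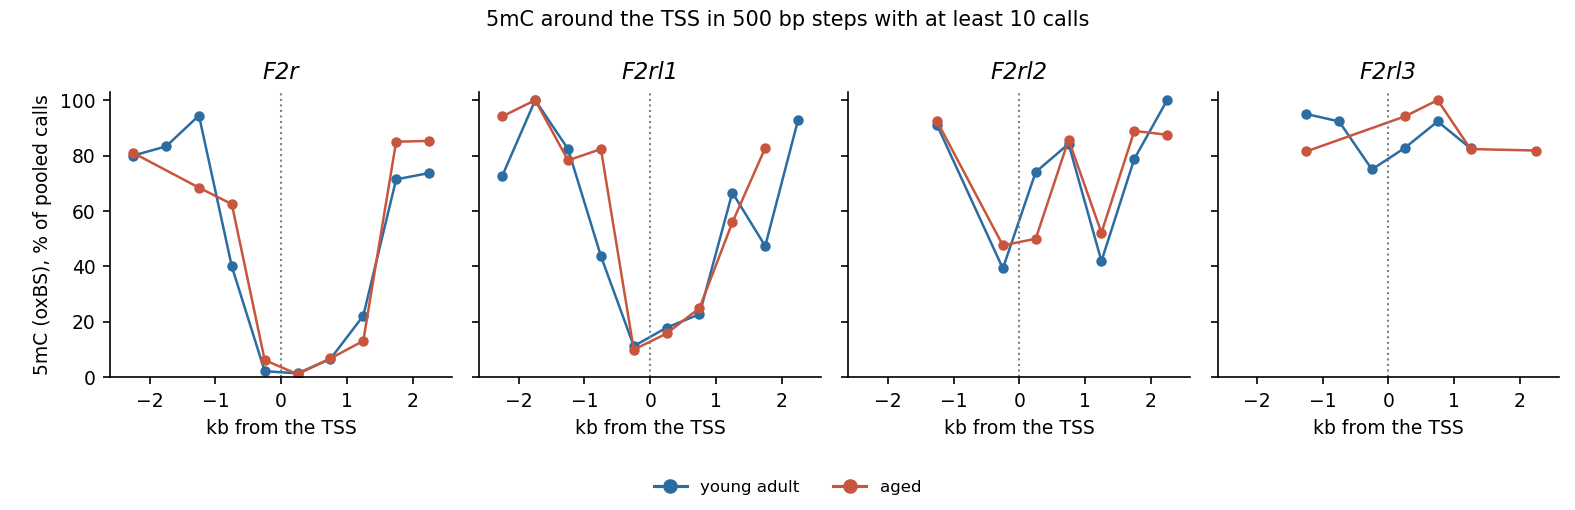
5mC (percent of oxBS calls pooled over 3 libraries per age) in 500-base steps with at least 10 calls, against distance from the TSS in kb, for young adult (blue) and aged (red) NSPCs. F2r and F2rl1 show a trough around the TSS in both ages and F2rl3 none. F2rl2 shows a shallow dip before the TSS and another 1000 to 1500 bases after it.

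Between ages 5mC in the 5 kb windows of the receptors did not differ beyond the spread between libraries. At F2r it was 34.6%, 33.0% and 23.4% in young adult and 27.9%, 39.4% and 37.8% in aged derivations, a mean of 30.3% ± 6.1 and 35.0% ± 6.3 (SD, n = 3 each). At F2rl1 it was 37.8%, 43.0% and 36.0% against 39.5%, 43.8% and 43.5%, a mean of 38.9% ± 3.6 and 42.3% ± 2.4 (SD, n = 3 each). At F2rl2 it was 63.1%, 68.4% and 77.4% against 63.9%, 77.1% and 72.9%, a mean of 69.6% ± 7.2 and 71.3% ± 6.8 (SD, n = 3 each). At F2rl3 it was 89.7%, 89.6% and 78.0% against 87.7%, 81.2% and 96.7%, a mean of 85.8% ± 6.7 and 88.5% ± 7.7 (SD, n = 3 each). The groups overlapped at all 4 receptors. In the quasi-binomial model over all windows the adjusted p was 1 for each receptor, and 0 of 69710 windows were called (0%), with 3711 at an unadjusted p under 0.05.

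BS reads 5mC and 5-hydroxymethylcytosine (5hmC) together. In BS libraries the order of the means was the same, with F2rl2 (80.3%) above F2rl3 (76.5%) in aged derivation 2, at 24.6% ± 4.0 in F2r, 42.0% ± 4.6 in F2rl1, 74.2% ± 4.4 in F2rl2 and 82.9% ± 4.1 in F2rl3 (SD, n = 6 each). No difference between ages was called at any receptor in the 5 kb windows (adjusted p of 1 in the same model). Of 71037 windows 0 were called (0%), with 3457 at an unadjusted p under 0.05. 5hmC, as BS minus oxBS of the same derivation, was -8.13 ± 7.80 points at F2r, 1.37 ± 6.47 at F2rl1, 3.74 ± 4.45 at F2rl2 and -4.25 ± 7.72 at F2rl3 (SD, n = 6 each). Values below 0 cannot be 5hmC and occurred in 5 of 6 derivations at F2r and at F2rl3, in 3 at F2rl1 and in 1 at F2rl2. Whether 5hmC differed from 0 was not tested. The differences between ages were -3.95, -0.56, 0.66 and -8.18 points for F2r, F2rl1, F2rl2 and F2rl3 (exact permutation test, two-sided, p = 0.70, 1, 1 and 0.30, each adjusted p = 1), where 3 against 3 cannot go below 0.10.

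Within 1 kb of the TSS the ages did not overlap at F2rl1 in either assay, nor at F2rl3 in oxBS, where 1 aged library held 7 calls. Over all windows of this width the ages did not overlap in 9.53% in oxBS and 9.43% in BS, and all aged libraries were above all young adult ones in both assays in 0.321%. At F2rl1 the oxBS share was 16.1%, 19.1% and 20.8% in young adult and 21.7%, 23.5% and 26.8% in aged derivations, and the BS share 20.7%, 19.4% and 20.5% against 21.1%, 32.3% and 28.1%. At F2rl3 the oxBS share was 89.4%, 85.2% and 84.2% against 94.3%, 100% and 100%. The differences of the pooled shares of F2rl1, 3.98 and 7.62 points, did not pass the threshold in the quasi-binomial model (adjusted p = 0.984 in each assay).

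**Figure D5:**
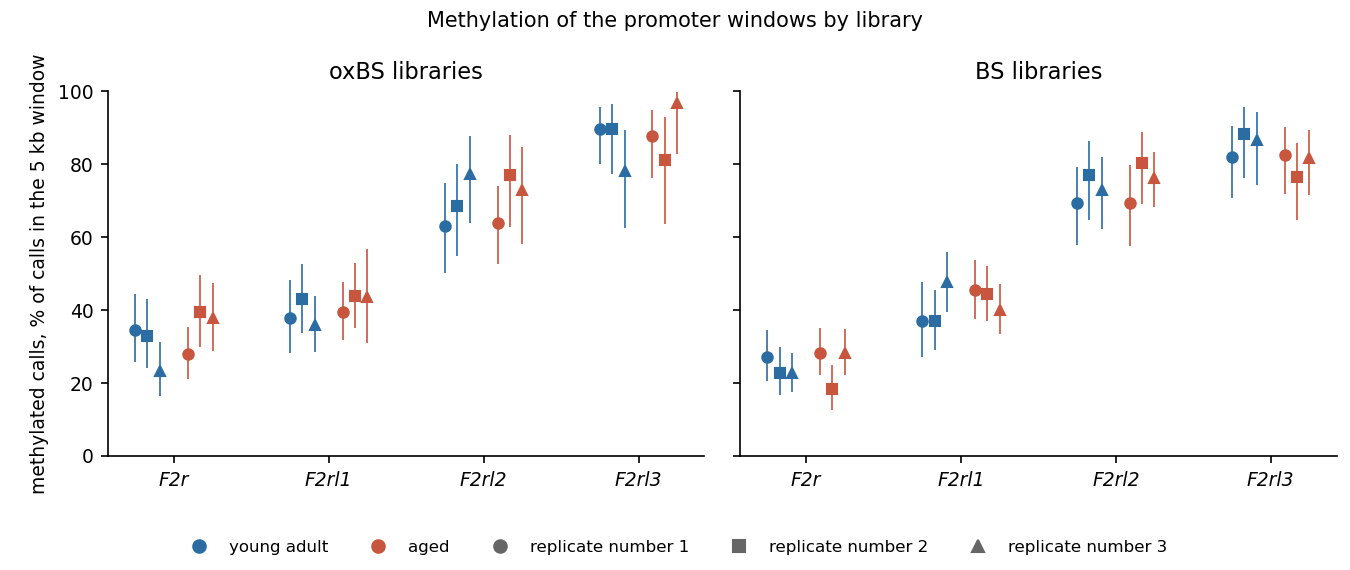
Methylated calls (percent of calls in the 5 kb window) in each oxBS and BS library, with 95% exact binomial intervals (counting error only), for young adult (blue) and aged (red) derivations, symbols giving the replicate number. The receptors keep the order F2r, F2rl1, F2rl2, F2rl3 in each oxBS library, and young adult and aged oxBS libraries overlap at every receptor.

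Beyond 2.5 kb from the TSS the gene bodies of F2r, F2rl1 and F2rl2 were highly methylated, at 81.8% to 94.1% in oxBS libraries, and F2rl3 was too short to have such a stretch. In F2rl1 the oxBS share was 85.8% to 90.7% in young adult and 83.8% to 84.6% in aged derivations, a mean of 88.5% ± 2.5 and 84.1% ± 0.4 (SD, n = 3 each). In BS libraries of the same stretch it was 86.6% to 91.1% and 79.5% to 87.3%. Aged minus young adult means were -4.30 points in oxBS and -5.48 in BS at F2rl1. They were -6.59 and -2.10 points at F2rl2, and -0.35 and 1.77 points at F2r. Gene bodies were looked at after the data had been seen, and for the 6 values (3 genes in 2 assays) the exact permutation test, two-sided, gave p from 0.10 to 0.90 with adjusted p from 0.30 to 0.90. With 3 against 3 this test cannot go below 0.10, so no value could have passed and it decides nothing here. The share of all gene bodies whose ages did not overlap was not computed, so the ranges at F2rl1 are a description.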

How the data were processed

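RNA was measured in 8 libraries, histone marks and Input over 3 derivations per age, and CpG methylation in 6 BS and 6 oxBS libraries. The authors deposited log2 RPM per gene and library and log2 RPM per promoter window and age, and counts of methylated and unmethylated calls per CpG position and library. The submitters' processing notes name GRCm38, Trim Galore 0.4 and 0.3.7, Bowtie2 2.2.5, bcl2fastq 2.15.0.4, FastQC 0.10.1, STAR 2.3.0 and Bismark 0.12.5. The study plots ChIP values as averages over its 3 replicates, and the deposited value per age was read as such. Not given in the sources used here were the counting program and whether both ages shared days of derivation. Deposited percentages per position were not used, since shares were computed from summed calls. oxBS libraries held 13616283 to 21389132 calls and BS libraries 23121086 to 30400033, at 1.20 to 1.48 calls per covered position, so that shares rest on whole windows.

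Whole reads were recovered from the log2 RPM (100% of values within 0.02 reads, a gene without a read being listed at 0.9 reads) for edgeR, DESeq2 and reported read counts. The main test, without a replicate block, was limma on log2 RPM with a mean-variance trend over genes with a mean of at least -2 in the 6 C57BL/6JBabr libraries, with Benjamini-Hochberg adjustment. Methylation was tested in windows of 10 or more calls per library with a quasi-binomial fit and moderated dispersion, called at an adjusted p under 0.05 and 10 percentage points. Few values were compared by exact permutation. Both models were tested on simulated data. Lengths were exon unions of GENCODE vM21, and coding or transcript lengths gave the same order. The tools were R 4.3.3, limma 3.58.1, edgeR 4.0.16, DESeq2 1.42.0, Python 3.11.15, numpy 2.4.6, pandas 2.3.3, scipy 1.17.1 and matplotlib 3.10.9.

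The receptors, the gene lists and the tests were chosen with earlier results of these data known. Besides the receptors, the genes named are the 3 most abundant of each list, those past the threshold, the largest difference in each direction, the genes next to a receptor and the 3 most similar in pattern. 1 gene that this rule names is not reported here. Young adult and aged RNA libraries of 1 number deviated together from their age means (correlations 0.66, 0.18 and 0.72 over 14858 genes), and RNA was taken as paired on this check of the data. Methylation libraries did not (-0.01 to 0.03). Derivations were made on different days.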

Additional observations from a re-analysis of the deposited data

How the results depend on the processing

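For RNA between ages, limma called 0 genes, 74 with the replicate block and 4 in DESeq2, and 0 in each fit without 1 library. F2r, F2rl1 and F2rl2 kept their direction under every alternative run, between -0.24 and -0.08, -2.43 and -0.44, and -0.90 and -0.59. Between strains 4468 genes were called, 2647 in edgeR, 2494 with the replicate block as an estimated correlation (chosen after seeing the data), 2686 without replicate 2, 1921 without the aged C57BL/10 library, and 1478 (without the young adult one) to 5529 (without replicate 3) over all that leave out a number or a library. There F2rl1 changed sign without derivation 3 of both ages (-0.39) and without the young adult C57BL/10 library (-0.44), within a range of -0.44 to 1.56. The age by strain interaction gave 1 call, 0 in edgeR and 41 with the replicate block. The order of RNA levels had 2 pairs past the threshold, 2 without any 1 library, 0 in the C57BL/6JBabr libraries alone and 0 with the replicate block, when libraries of 1 number were flipped as 1 unit, an alternative chosen after seeing the data. Windows meeting the H3K4me3 rule were 149, 2186 with Input subtracted, 55 with 1 window per gene and 27 at 2-fold, and for H3K27me3 941, 1960, 428 and 101. The H3K4me3 difference of F2r was -0.026 after quantile normalization and the H3K27me3 difference of F2rl1 -0.22 with Input subtracted. Methylation differences of the receptors moved widely or changed sign, while 0 windows were called in every alternative. In oxBS, F2r (4.26 points) was 0.14 without young adult replicate 3 and 8.92 without aged replicate 1, F2rl2 was -6.33 points within 1 kb and -2.89 to 5.86 without 1 library, and F2rl3 -1.42 to 4.18. In BS, F2r was -0.47 within 1 kb and -0.083 to 4.33 without 1 library, and F2rl1 -0.53 to 6.07 and 7.62 within 1 kb. 5hmC differences within 1 kb were 1.63 points at F2rl1, 8.70 at F2rl2 and -18.0 at F2rl3. The replicate block changed no call in the oxBS and BS window fits, and was not run for the 5mC order or 5hmC. The cause of these changes was not tested. Within 1 kb F2rl3 had fewer than 10 oxBS calls in a library and was not fitted there. Depth limited F2rl3 RNA (1 to 11 reads) and window methylation (30 oxBS calls in the shallowest).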

Other observations

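Among the neighbours of F2rl3, the predicted gene Gm10282, named after its values were seen, held 1816 to 5187 reads in each of the 6 C57BL/6JBabr libraries, and 1 and 0 reads in the young adult and aged C57BL/10 libraries. It lies 456604 bases from F2rl3, and whether its reads are shared with copies elsewhere was not tested. F2rl3 held 4 and 1 reads in the same C57BL/10 libraries.

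Plat and Serpine2, the most abundant protease and inhibitor genes of the lists, were also higher in C57BL/10, by 0.87 (SE 0.09, limma adjusted p = 7.5e-05) and 0.61 (SE 0.10, adjusted p = 0.00220). In edgeR the differences were 0.72 (adjusted p = 2.97e-04) and 0.45 (adjusted p = 0.00624), and with the correlation within a replicate number estimated in limma both stayed past the threshold (adjusted p = 2.31e-04 and 0.00872). F3 was not called between strains, at -0.03 (SE 0.17, adjusted p = 0.915).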
